A study of Rattus norvegicus with 12 samples.

Results

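The high-fat diet was studied here within the Alzheimer's model: 4 brain libraries of the model with the diet (AD-HFD-1 to AD-HFD-4) against 4 of the model without it (AD-1 to AD-4), taken by their group labels out of 12 libraries in all. The other 4 libraries, labelled Sham, are the controls of the series and are given as the background level. RNA-seq measured 31177 rows, of which 18850 had enough counts to be tested, and the 8 libraries held 26668974 to 34395986 counts each. Although the labels speak of mice, the organism field names the rat and the genes carry rat identifiers, so the samples are treated as rat. Neither the way in which the model was made, nor the strain, age, sex, brain region, diet composition or feeding time is stated in the labels, and sham animals given the diet were not analysed here. All 8 libraries come from the model, so every difference below is between model brains with and without the diet. It is not stated whether each library came from its own animal, so a p-value measures the spread between these libraries.

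A diet rich in fat loads the body with triglyceride-rich lipoproteins, and lipoprotein lipase at the vessel wall releases their fatty acids to tissue. In rodents such a diet is known to raise leptin and insulin, to disturb their receptors' signalling in the brain, and to activate glia. Brain tissue also answers neuronal activity and injury within minutes through immediate early genes, among them Fos, Egr1 and the orphan nuclear receptors of the NR4A family. Levels below are in CPM, the TMM-scaled count relative to the library's total, which compares a gene between libraries but not genes with each other. Differences are log2 fold changes of AD-HFD over AD ± SE. A gene was called at an adjusted p under 0.05, and a looser limit of 0.1 is given beside it because so few genes were called. In bulk tissue, fewer cells of a type and less RNA per cell cannot be told apart.

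Marker genes of brain regions were uneven among the 4 AD libraries, and this bears on every comparison below. Averaged on the log2 CPM scale, 12 thalamus markers stood at 5.94, 3.64, 2.02 and 5.51 in the 4 AD libraries in order, and at 1.77 to 2.46 in AD-HFD. For 13 cerebral cortex markers it was 3.15, 2.23, 5.59 and 3.08 in AD-1 to AD-4 and 4.51, 4.93, 6.35 and 3.96 in AD-HFD-1 to AD-HFD-4. All AD libraries but AD-3 were thus richer in thalamus markers and poorer in cortex markers than every AD-HFD library, while AD-3 lay among the AD-HFD libraries in both lists. Within AD-HFD, AD-HFD-3 had the most cortex marker RNA and AD-HFD-4 the most blood RNA, with haemoglobin genes at 0.4% of counts against at most 0.123% elsewhere in both groups. Of these 8 libraries AD-HFD-1 carried by far the most choroid plexus RNA. Because of this, results are given with all libraries and, where they differ, also without AD-3 or with AD-3 as the only AD library, where its own spread is assumed to equal that of the other groups.

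With the quasi-likelihood test of edgeR and p-values adjusted by Benjamini-Hochberg, 2 of 18850 genes were called (0.0106%), and both rose with the diet. At the looser limit 1952 genes were higher (10.4%) and 1470 lower (7.8%), 18.2% in all. In 513 genes (2.72%) every AD-HFD library stood above every AD library, and in 516 (2.74%) every one stood below, 5.46% in all. Without AD-3 the test called 3470 higher (18%) and 2371 lower (12.3%) of 19278 genes. With AD-3 as the only AD library it called 0 of 20787, and 1311 passed at an unadjusted p under 0.05. Single libraries decided these counts: without AD-HFD-3 5321 genes were called, without AD-1 or AD-2 none, without AD-4 or AD-HFD-2 1 and without AD-HFD-4 4. The number at the looser limit was 3422 with all libraries but 3, 0, 4, 2 and 11 without AD-1, AD-2, AD-4, AD-HFD-1 and AD-HFD-4. It was 1 in the 8 AD and AD-HFD libraries fitted alone. With the thalamus and cortex list means as covariates it was 123, of which 31 were higher and 92 lower. With the red blood cell and leptomeninges list means it was 148, of which 61 were higher and 87 lower. Counts of list members at this limit below hold for the fit of all 12 libraries. DESeq2 called 3311 genes on the same table. Of the 5738 genes called without AD-3 among those tested with it, AD-3 itself lay within the range of the AD-HFD libraries for 3923 (68.4%), on the side of the other AD libraries for 810, and past the AD-HFD range for 1005.

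**Figure D1:**
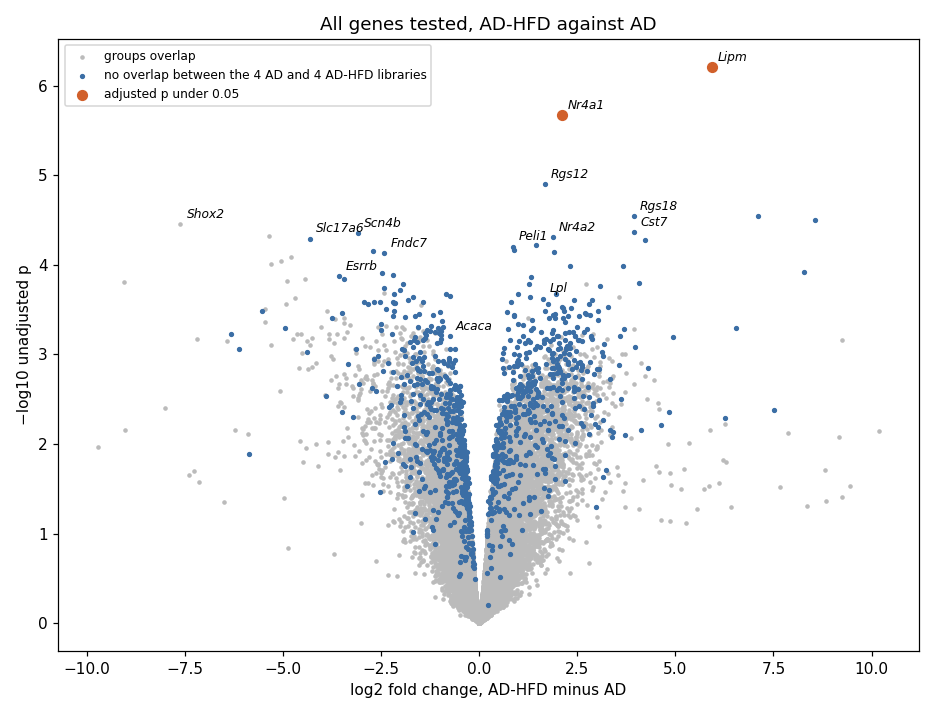
Log2 fold change of AD-HFD over AD (x axis) against the −log10 unadjusted p (y axis) for all 18850 genes tested, 1 point per gene; blue points are genes whose 4 AD and 4 AD-HFD libraries did not overlap, and the 2 orange points are those called at an adjusted p under 0.05. Lipm and Nr4a1 stand highest, and the genes with the next smallest p lie on both sides of 0.

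Nr4a1 encodes an orphan nuclear receptor that is induced within minutes of neuronal activity or of stress signals. It stood at 8.86, 7.7, 14.8 and 10.7 CPM in AD-1 to AD-4, at 35.4, 44.6, 38 and 63.2 CPM in AD-HFD-1 to AD-HFD-4, and at 51.1 to 79.5 CPM in Sham. All AD libraries, AD-3 included, were below all AD-HFD libraries, and of the AD-HFD libraries AD-HFD-4 alone reached the Sham range. Nr4a1 rose by 2.11 ± 0.249 (adjusted p = 0.0198) and by 2.32 ± 0.243 without AD-3. Against AD-3 alone its log2 fold change of 1.61 ± 0.383 was not called (adjusted p = 0.464). Leaving out any AD library other than AD-3, or AD-HFD-2, ended its call (adjusted p 0.0521 to 0.1035), as did a fit of the 8 libraries alone (adjusted p = 0.187). With the thalamus and cortex list means as covariates the log2 fold change was 1.84 ± 0.335 (adjusted p = 0.0728), and with red blood cell and leptomeninges list means it was 2.18 ± 0.311 (adjusted p = 0.0478).

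Lipm encodes a member of the acid lipase family known chiefly from differentiating skin cells. It had 5 counts over the AD group, all in AD-3, where it stood at 0.154 CPM, and 0 CPM in the other AD libraries. In AD-HFD-1 to AD-HFD-4 it stood at 2.66, 2.07, 2.34 and 3.76 CPM, from 334 counts, and in Sham at 0.204 to 0.847 CPM. The 4 AD-HFD libraries all stood above the AD and the Sham range. Lipm rose by 5.93 ± 0.767 (adjusted p = 0.0115), and against AD-3 alone its log2 fold change of 4.1 ± 0.916 was not called (adjusted p = 0.439). Its call ended on leaving out any of those other AD libraries (adjusted p 0.0714 to 0.1035), in the 8 libraries alone (adjusted p = 0.0807), with the legacy quasi-likelihood method (adjusted p = 0.0771) and with the thalamus and cortex covariates (4.84 ± 0.889, adjusted p = 0.0728).

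The promoters of both called genes and of Nr4a2, whose groups did not overlap either, are shown because transcription of the NR4A genes is known to respond to cAMP through CREB. Each is the 250 bases before 1 start site of the gene in RefSeq's rat build GRCr8. Other start sites of the same gene, where there are any, were not looked at. Capitals mark TGACG, the half-site of the cAMP response element, read on both strands (CGTCA on the other), which also lies inside the full element TGACGTCA.
Nr4a1, chr7:134259888-134260137, plus strand: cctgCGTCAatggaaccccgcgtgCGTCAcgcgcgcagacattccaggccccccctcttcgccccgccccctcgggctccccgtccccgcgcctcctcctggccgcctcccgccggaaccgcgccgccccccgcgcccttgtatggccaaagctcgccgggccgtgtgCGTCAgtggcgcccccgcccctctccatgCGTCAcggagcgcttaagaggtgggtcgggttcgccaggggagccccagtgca
Nr4a2, chr3:62104888-62105137, minus strand: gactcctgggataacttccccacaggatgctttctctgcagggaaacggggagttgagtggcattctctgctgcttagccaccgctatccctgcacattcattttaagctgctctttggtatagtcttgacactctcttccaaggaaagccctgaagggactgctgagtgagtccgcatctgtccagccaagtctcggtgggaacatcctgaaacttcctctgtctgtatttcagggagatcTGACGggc
Lipm, chr1:241031132-241031381, plus strand: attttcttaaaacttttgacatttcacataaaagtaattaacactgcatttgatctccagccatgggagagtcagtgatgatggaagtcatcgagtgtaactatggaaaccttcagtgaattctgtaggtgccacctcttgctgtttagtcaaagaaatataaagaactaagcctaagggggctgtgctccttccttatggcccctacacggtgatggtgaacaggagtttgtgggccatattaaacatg
The Nr4a1 window held 4 half-sites, the Nr4a2 window 1 and the Lipm window 0, and none of the 3 held the full element. Among 33469 rat promoters of the same length, 18.2% held the half-site and 1.59% the full element. The Lipm window held 1 match to TATAAA, the letters of the TATA box, and the Nr4a1 and Nr4a2 windows held 0. This motif was found on either strand in 12.9% of promoters. The distance of the Lipm match from the start site was not measured, so it is not shown to be a working core promoter box. A match describes these letters only.

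Immediate early genes stood higher in AD-HFD, and for the NR4A genes the 4 AD libraries were the low ones of the series. Of 22 measured immediate early genes (23 listed), all 22 had a log2 fold change above 0 with a median of 1.62, against a median of 0.04 over all genes. At the looser limit 10 were higher and none lower (background 10.4% higher), and in 6 the groups did not overlap (background 2.72%). Those 6 were Nr4a1, Nr4a2, Nr4a3, Fos, Egr1 and Npas4, the last named after its values were seen. Without AD-3, 21 were called higher (18% of all genes) with a median of 3, and against AD-3 alone the median was 0.28.

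Nr4a2, which is needed by dopamine neurons and is also activity-induced, stood at 9.1, 12.6, 11.1 and 5 CPM in AD-1 to AD-4 and 28.5, 26.4, 53.2 and 31.1 CPM in AD-HFD-1 to AD-HFD-4. Its groups were separate, and the Sham libraries (17.9 to 28.7 CPM) stood above AD and reached into the lower AD-HFD range (log2 1.88 ± 0.305, adjusted p = 0.0605; 1.66 ± 0.474 against AD-3 alone). Nr4a3 stood at 1.87, 1.49, 9.35 and 3.52 CPM in AD and 13.5, 13.3, 30.4 and 18.1 CPM in AD-HFD, with AD-3 nearest to the AD-HFD libraries (log2 2.21 ± 0.504, adjusted p = 0.0605). Fos, a subunit of the AP-1 transcription factor, was at 18, 8.25, 67.9 and 47.3 CPM in AD and 181, 205, 144 and 393 CPM in AD-HFD. Every AD-HFD library was above every AD library and above the Sham range of 9.23 to 14.4 CPM (log2 2.71 ± 0.549, adjusted p = 0.0605). Egr1, a zinc finger transcription factor of synaptic plasticity, was at 62.3, 14.1, 167 and 102 CPM in AD and 392, 517, 326 and 788 CPM in AD-HFD. AD-2 was lowest and AD-HFD-4 highest (log2 2.55 ± 0.563, adjusted p = 0.0605). Bdnf, the growth factor that activity also induces, did not separate the groups: it stood at 10.2, 9.74, 82 and 10.5 CPM in AD and 36.5, 18, 96.9 and 29 CPM in AD-HFD (log2 0.68 ± 0.711, adjusted p = 0.534). AD-3 and AD-HFD-3, the libraries of each group with the most cortex marker RNA, had the highest Bdnf, and against AD-3 alone the log2 fold change was -0.85 ± 0.715.

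**Figure D2:**
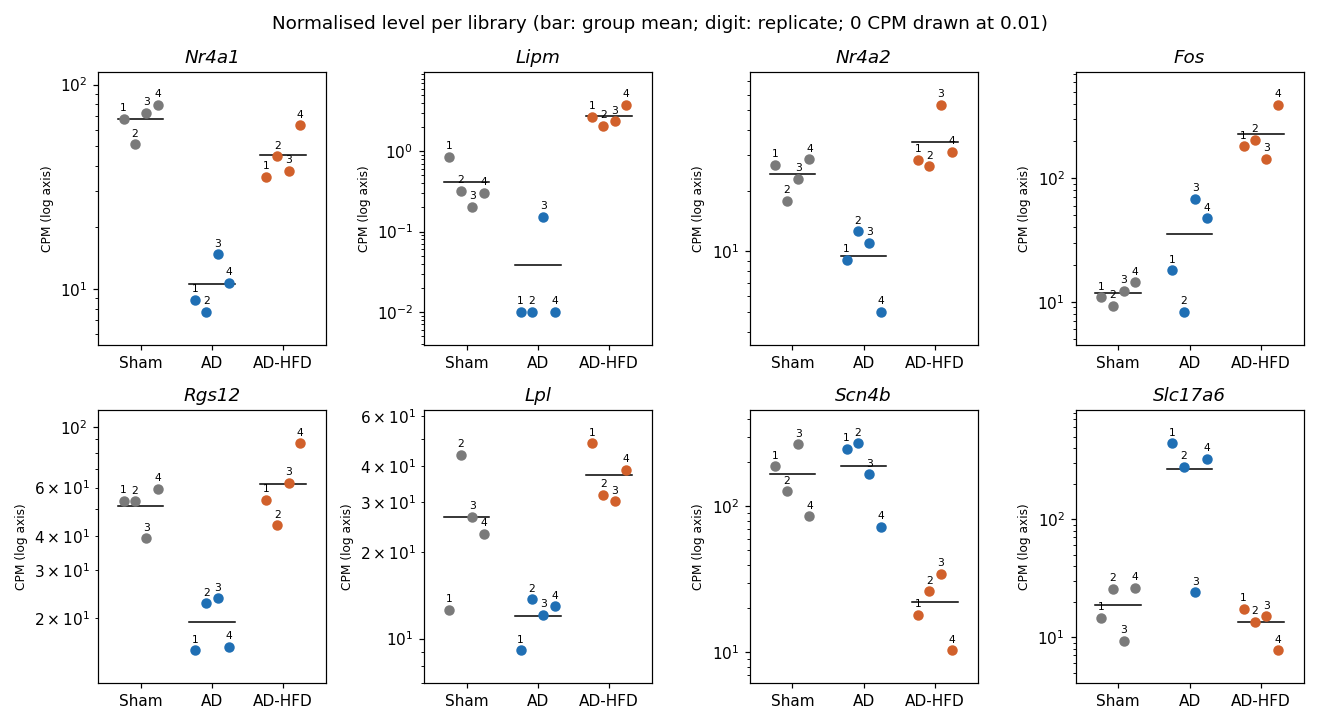
CPM on a log axis in each of the 12 libraries for 8 genes, with the replicate number at each point and the group mean as a bar; 0 CPM is drawn at 0.01. Nr4a1, Lipm, Nr4a2, Fos, Rgs12 and Lpl are higher in all 4 AD-HFD libraries than in all 4 AD libraries, Scn4b and Slc17a6 lower, and for Slc17a6 AD-3 lies near the AD-HFD points.

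The genes with the next smallest p on the higher side all missed the threshold of 0.05 and are given by their values. Rgs12, a brake on G protein signalling, stood at 15.3, 22.7, 23.6 and 15.7 CPM in AD and 54.1, 43.6, 62.5 and 87.1 CPM in AD-HFD, where Sham was at 39.1 to 59.5. The groups did not overlap, and the AD-HFD libraries lay within or above the Sham range (log2 1.68 ± 0.237, adjusted p = 0.0605; 1.39 ± 0.403 against AD-3 alone). Rgs18, a related protein of platelets and myeloid cells, was at 0.0692, 0.175, 0.154 and 0.181 CPM in AD and 2, 1.02, 0.969 and 5.25 CPM in AD-HFD (log2 3.94 ± 0.642, adjusted p = 0.0605). The highest AD library was at 0.181 CPM, and AD-HFD-3 was the lowest AD-HFD library. C6, a component of the membrane attack complex, was at 0, 0.35, 0.338 and 0.29 CPM in AD and 3.84, 4.68, 0.969 and 9.64 CPM in AD-HFD (log2 4.23 ± 0.77), and its Sham range was 0 to 0.319 CPM. Its levels were low in AD-HFD-3 and highest in AD-HFD-4. Lpl, lipoprotein lipase, stood at 9.1, 13.7, 12.1 and 13 CPM in AD and 48.2, 31.8, 30.2 and 38.9 CPM in AD-HFD. The AD libraries were close to each other and all below AD-HFD, but Sham ran from 12.6 to 43.9 CPM and overlapped both groups (log2 1.64 ± 0.318, adjusted p = 0.0605; 1.62 ± 0.591 against AD-3 alone).

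Peli1, a ubiquitin ligase of innate immune signalling, was at 23.3, 21.5, 30.1 and 24.3 CPM in AD and 48.9, 43.3, 42.3 and 46.1 CPM in AD-HFD (log2 0.86 ± 0.144). Rab29, a small GTPase of the Golgi and lysosome, had a difference of 0.89 ± 0.149. Larger differences were seen for Atad2, a chromatin protein of dividing cells (1.46 ± 0.243), and for Calhm2, a calcium homeostasis modulator gene (1.9 ± 0.322). All 4 were at an adjusted p of 0.0605. In Rab29 and Calhm2 the Sham libraries were higher still, at 30.6 to 36.2 and 10.2 to 15.5 CPM. For Atad2 the Sham range of 9.79 to 15.1 CPM spanned the AD-HFD range of 11.6 to 14.4 CPM. For Peli1 Sham lay within the AD range, at 22 to 29 CPM. The sodium-proton exchanger Slc9a2 (log2 2.27 ± 0.592) stood at 0.9, 1.92, 1.51 and 1.89 CPM in AD and 4.8, 4.87, 13.8 and 6.62 CPM in AD-HFD, and Sham reached from just above AD to the top of AD-HFD at 2.04 to 14.8 CPM. Serpinb2, an inhibitor of plasminogen activators, had no counts in Sham, at most 0.461 CPM in AD and 18.3, 5.19, 4.12 and 1.1 CPM in AD-HFD (log2 4.95 ± 0.993). Mmp3, a matrix-degrading protease, was at 0.277, 0.233, 1.45 and 0.689 CPM in AD and 20.8, 3.47, 2.5 and 7.38 CPM in AD-HFD (log2 3.68 ± 0.716). For both, AD-3 was the highest AD library and AD-HFD-1 the highest of all. The myeloid receptor gene Clec4a2 (4.08 ± 0.857) was at no more than 0.326 CPM in AD, and its AD-HFD libraries ran from 0.531 to 5.65 CPM. The fold changes of the potassium channel gene Kcnj13 (7.51 ± 2.22), the coagulation factor gene F5 (6.27 ± 1.83) and the tight junction gene Cldn1 (4.63 ± 1.39) rested on AD-HFD-1, at 76.1, 197 and 41.4 CPM against at most 3.54, 11.8 and 2.1 CPM in the other AD-HFD libraries. Choroid plexus markers moved with AD-HFD-1. All 15 had a log2 fold change above 0 (median 4.88, or 1.61 without AD-HFD-1) and 4 passed the looser limit (10.4% of all genes). Their mean log2 CPM was -0.434 to 0.228 in AD and 6.87, 2.83, -0.504 and 0.0112 in AD-HFD-1 to AD-HFD-4, and Ttr, transthyretin, was at 9689, 483, 1.84 and 8.31 CPM in AD-HFD-1 to AD-HFD-4 and at most 3.6 CPM in AD. Such RNA was not particular to AD-HFD-1, since the list mean was -1.03, 6.05, 5.45 and -0.36 in Sham-1 to Sham-4. Ttr, Kcnj13, F5 and Cldn1 reached 4283, 52.3, 37 and 10.5 CPM in Sham. The part of choroid plexus RNA in these folds was not tested.

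On the lower side no gene was called. Those given here and in the next paragraph passed the looser limit and were picked by smallest p, largest fold change or widest gap. The same conditions held, so their lack of overlap was again set by the selection. Scn4b, a sodium channel subunit of fast-firing neurons, stood at 248, 271, 166 and 72.4 CPM in AD and 18, 26.3, 34.4 and 10.3 CPM in AD-HFD, with Sham at 85.6 to 266. AD-4 was the lowest AD library and still stood above every AD-HFD library (log2 -3.09 ± 0.497, adjusted p = 0.0605; -2.9 ± 0.575 against AD-3 alone). Slc17a6, the vesicular glutamate transporter of thalamus and brainstem, was at 440.2, 278, 24.1 and 323 CPM in AD and 17.4, 13.4, 15 and 7.75 CPM in AD-HFD. AD-3 was far below the other AD libraries and within the Sham range of 9.28 to 26.2 CPM, and the log2 fold change of -4.31 ± 0.704 was -0.85 ± 0.543 against AD-3 alone. Csdc2, an RNA-binding protein gene, had the same pattern. It was at 341, 294, 62.1 and 262 CPM in AD and 39.4, 61.6, 49.8 and 21.4 CPM in AD-HFD (log2 -2.48 ± 0.446). Its log2 fold change against AD-3 alone was -0.53 ± 0.425, and Sham stood at 51.8 to 63.8 CPM. Esrrb, an orphan nuclear receptor of the oestrogen-related type, was at 3.74, 4.05, 0.922 and 1.31 CPM in AD and 0.263, 0.382, 0.187 and 0 CPM in AD-HFD (log2 -3.56 ± 0.657; -2.12 ± 0.806 against AD-3 alone). Its level was low in all libraries. Elmo1, which guides engulfment and cell movement, was at 131, 90.3, 92.5 and 90.4 CPM in AD and 65.3, 58.2, 60.5 and 56.6 CPM in AD-HFD, near the Sham range of 48.9 to 59.1 CPM (log2 -0.75 ± 0.144; -0.62 ± 0.186 against AD-3 alone). Zfp791, a zinc finger gene, was -1.39 ± 0.298 against AD and -1.33 ± 0.49 against AD-3 alone. The same pair of values was -1.38 ± 0.302 and -1.05 ± 0.481 for Ttll3, a tubulin-modifying enzyme, and -1.58 ± 0.561 and -1.85 ± 0.867 for Slc35d3, a transporter family gene.

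For several other genes on this side the difference from AD-3 was smaller than that from the AD group. The thiamine transporter Slc19a3 was -2.42 ± 0.454 against AD and -0.85 ± 0.502 against AD-3 alone. For the potassium channel subunit Kcnmb2 these values were -1.93 ± 0.357 and -1 ± 0.478, for the kinase gene Stk32b -2.18 ± 0.416 and -1.27 ± 0.603, and for the membrane protein gene Fndc7 -2.41 ± 0.408 and -1.37 ± 0.507. The calmodulin-binding peptide gene Pcp4 stood at 858, 179.9, 159.6 and 721 CPM in AD and 91.1, 81, 93.4 and 76.1 CPM in AD-HFD. AD-1 and AD-4 were far above AD-2 and AD-3 (log2 -2.49 ± 0.522). Nfatc2, a calcium-regulated transcription factor, was at 14.8, 24.8, 6.52 and 10.2 CPM in AD and 2.76, 4.14, 3.28 and 2.06 CPM in AD-HFD (log2 -2.2 ± 0.431; -1.09 ± 0.499 against AD-3 alone). Also picked on this side were Dbndd1 (-2.01 ± 0.38), the pyridoxal phosphate homeostasis gene Plpbp (-0.83 ± 0.16) and the orphan receptor gene Gpr153 (-1.68 ± 0.324). Low in AD-HFD and uneven within AD were Th, which makes the dopamine precursor, at 25.6, 209, 3.35 and 16.5 CPM in AD and 0.69, 0.892, 2.97 and 0.898 CPM in AD-HFD, and Grid2ip (-4.38 ± 1.01), Dlk1 (-3.49 ± 0.707), Ky (-3.34 ± 0.803) and Vwa7 (-3.2 ± 0.937). For Th, Dlk1 and Ky the AD-2 library was the highest, at 209, 114 and 7.08 CPM.

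Thalamus and monoamine neuron genes stood lower in AD-HFD than in every AD library but AD-3, and hypothalamus genes stood high in AD-4 alone. Of 12 thalamus markers 11 were below 0 with a median of -2.37, and 6 passed the looser limit as lower (background 7.8%). Without AD-3 8 were called lower (12.3% of all genes), and against AD-3 alone the median was 0.57. Shox2, a homeobox gene of thalamic neurons, was at 64.6, 13.7, 0.184 and 38.6 CPM in AD and at most 0.399 CPM in AD-HFD. AD-3 lay within the AD-HFD range, as it did for Calb2, calretinin, at 166, 213, 7.04 and 199.6 CPM in AD and 14, 11.4, 10.3 and 4.19 CPM in AD-HFD. Gbx2, another thalamic homeobox gene, was at 14.9, 0.846, 0 and 8.45 CPM in AD and at most 0.478 CPM in AD-HFD. Of 11 hypothalamus markers 10 were below 0 (median -3.54), but the median rested on AD-4 and was -0.35 without it and -0.084 against AD-3 alone. Its members' mean log2 CPM stood at -0.0349, -0.369, 0.252 and 4.85 in AD-1 to AD-4 and -0.489 to 0.451 in AD-HFD, and the appetite peptides Pmch and Hcrt rested on AD-4, at 927 and 112 CPM against at most 3.39 and 0.496 CPM in the other AD libraries. All 6 measured markers of midbrain and hindbrain monoamine neurons were lower at the looser limit (median -5.26; -2.27 without AD-2, -0.15 against AD-3 alone), led by the dopamine transporter Slc6a3 at 38.7, 205, 0.154 and 2.07 CPM in AD and at most 0.319 CPM in AD-HFD. Of 13 cerebral cortex markers 9 were above 0, with a median of 0.81 (0.18 without AD-HFD-3, -0.16 against AD-3 alone). Without AD-3 8 were called higher (18% of all genes). At the looser limit 1 passed as higher (10.4% of all genes). That 1 was Neurod6, a transcription factor of forebrain excitatory cells, at 2.22, 3.15, 8.46 and 2.1 CPM in AD and 7.06, 7.26, 69.9 and 3.39 CPM in AD-HFD, where AD-HFD-3 alone approached the Sham range of 84.7 to 108 CPM.

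**Figure D3:**
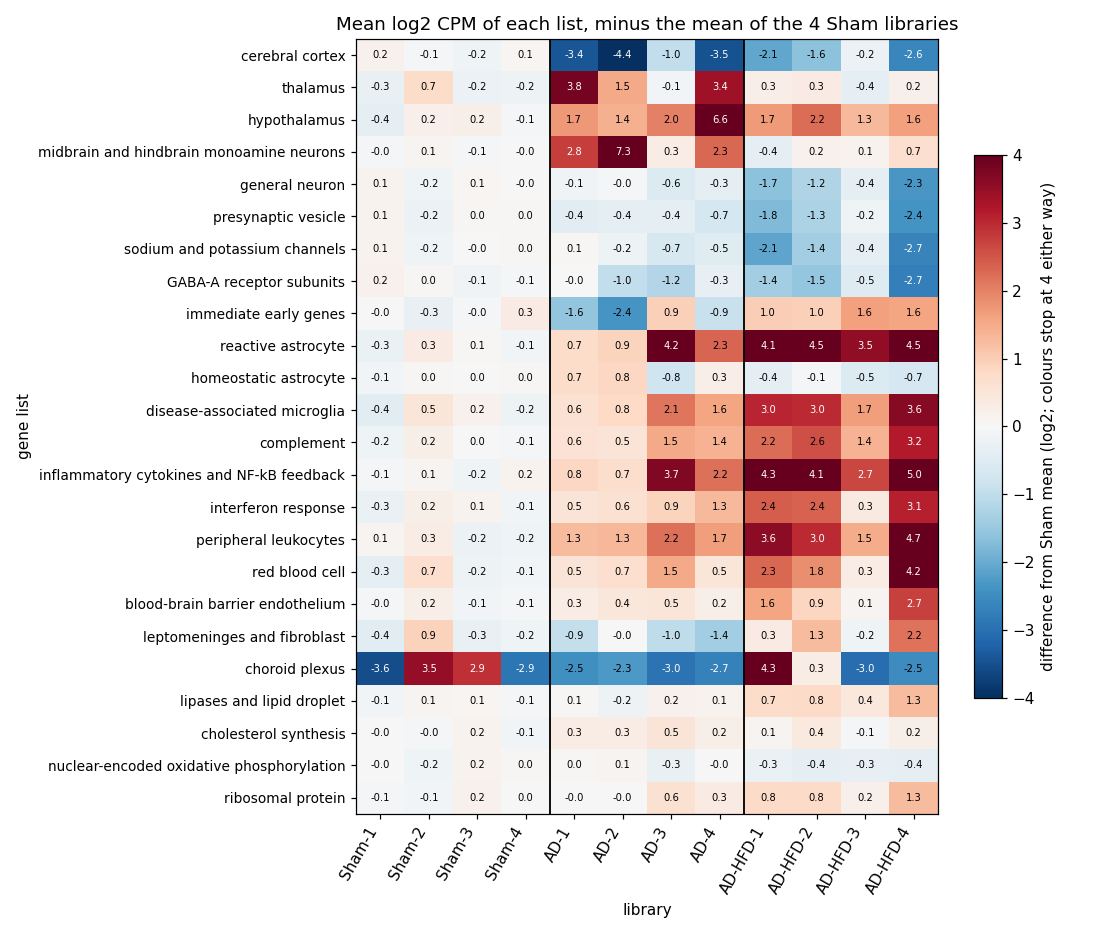
Mean log2 CPM of 24 gene lists (rows) in the 12 libraries (columns), as the difference from the mean of the 4 Sham libraries; red is higher and blue lower. Thalamus and monoamine lists are high in every AD library but AD-3, and the hypothalamus list in AD-4, but all 3 are near the AD-HFD values in AD-3, and immune, blood, endothelial and meningeal lists are higher in AD-HFD-1, AD-HFD-2 and AD-HFD-4 than in AD-HFD-3.

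Pan-neuronal and synaptic genes were lower in AD-HFD-1, AD-HFD-2 and AD-HFD-4, while AD-HFD-3 as a rule was nearer to AD: the mean log2 CPM of the general neuron list was 8.59, 8.7, 8.18 and 8.39 in AD and 7.08, 7.54, 8.37 and 6.41 in AD-HFD. Of 15 general neuron markers 14 were below 0 (median -0.83; -0.68 against AD-3 alone), and 6 were lower at the looser limit. Nefh, the heavy neurofilament chain, was at 514, 869, 97.3 and 264 CPM in AD and 78.3, 69.9, 70.1 and 25.3 CPM in AD-HFD (log2 -2.84 ± 0.561), with AD-3 far below the other AD libraries. Uchl1, a neuronal deubiquitinase, was at 1019, 988, 678 and 1146 CPM in AD and 322, 419.6, 687 and 238 CPM in AD-HFD (log2 -1.2 ± 0.291), and Thy1, a surface protein of projection neurons, at 1045, 902, 603 and 862 CPM in AD and 255, 364, 648 and 198 CPM in AD-HFD (log2 -1.22 ± 0.325). In both, AD-HFD-3 was level with AD-3 while AD-HFD-1, AD-HFD-2 and AD-HFD-4 were lower. Of 17 presynaptic vesicle genes 16 were below 0 (median -0.64; -0.75 against AD-3 alone) and 5 were lower at the looser limit, among them the vesicle fusion protein Vamp1 at 681, 1152, 289.6 and 266 CPM in AD and 99.4, 94.9, 176 and 45 CPM in AD-HFD and complexin Cplx1 (-1.42 ± 0.387). Of 19 sodium and potassium channel genes 18 were below 0 and 8 passed the looser limit (median -1.02; -0.5 against AD-3 alone), including Kcnc1 (-2.06 ± 0.534) and Kcna1 (-1.19 ± 0.274), channels of fast-spiking cells and axons. The background for these counts was 7.8%.

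Receptor and interneuron genes were also mostly below 0 (over all genes 7.8% were lower at the looser limit). GABA-A receptor subunits had 11 of 12 members below 0, 3 of them at the looser limit (median -0.92; -0.13 against AD-3 alone), and Gabrb2 was at 71.6, 41.9, 10.3 and 39.6 CPM in AD and 10.9, 12, 23 and 3.29 CPM in AD-HFD. Its AD-3 value lay among the AD-HFD ones. Of 11 AMPA and NMDA receptor subunits 8 were below 0 and 3 passed the looser limit (median -0.38), led by Grin2d at 42.8, 44.7, 4.8 and 41.1 CPM in AD and 4.11, 8.38, 11.6 and 6.65 CPM in AD-HFD. Of 15 inhibitory neuron markers 10 were below 0 and 5 passed (median -0.76; -0.7 against AD-3 alone). This median was -0.37 without AD-4 and turned to 0.74 with the red blood cell and leptomeninges covariates. Without AD-3 4 members were called lower and 2 higher (12.3% and 18% of all genes). The GABA vesicle transporter Slc32a1 was at 99.3, 155, 84 and 158 CPM in AD and 46.1, 66.8, 61.9 and 12.5 CPM in AD-HFD and did not overlap, and parvalbumin, Pvalb, was at 66.6, 93.6, 30.2 and 55.1 CPM in AD and 29.99, 14.6, 30.2 and 4.49 CPM in AD-HFD, with AD-3 and AD-HFD-3 almost level. Postsynaptic scaffold genes had a median of -0.18 (-0.75 against AD-3 alone) with none of 16 at the looser limit. The median of the AMPA and NMDA receptor subunits was -0.13 against AD-3 alone.

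Microglial activation and complement genes stood higher in AD-HFD-1, AD-HFD-2 and AD-HFD-4. Of 22 disease-associated microglia genes 21 were above 0, 14 were higher at the looser limit (background 10.4%) and 2 did not overlap (background 2.72%), with a median of 1.47, 1.78 without AD-3 and 0.7 against AD-3 alone. Cst7, a cystatin of activated microglia, was at 0.138, 0.146, 0.215 and 0 CPM in AD and 1.54, 1.53, 0.375 and 4.79 CPM in AD-HFD (log2 3.95 ± 0.753, adjusted p = 0.0605; 3.22 ± 1.3 against AD-3 alone), and Sham was at most 0.128 CPM. Lysozyme, Lyz2, was at 46.5, 53.1, 150.4 and 81.7 CPM in AD and 395, 253, 104 and 777 CPM in AD-HFD, and the protease cathepsin L, Ctsl, at 143, 152, 283 and 180.02 CPM in AD and 626, 509, 204 and 1623 CPM in AD-HFD. AD-HFD-3 lay within the AD range in both, and AD-HFD-4 was the highest library. Trem2, the lipid-sensing receptor of this programme, did not pass even the looser limit (6.54, 6.36, 5.26 and 4.57 CPM in AD and 6.8, 5.19, 3.87 and 9.38 CPM in AD-HFD, log2 0.15 ± 0.26, adjusted p = 0.722), nor did Apoe (-0.32 ± 0.24, adjusted p = 0.376). Homeostatic microglia genes had a median of 0.16 (0.61 against AD-3 alone), with 4 of 13 higher and 1 lower at the looser limit. Among them Mertk, a phagocytic receptor, did not overlap (29, 31, 35.2 and 31.4 CPM in AD and 64.2, 50.2, 38.6 and 97.7 CPM in AD-HFD) and the growth factor receptor Csf1r was 0.47 ± 0.168, while the ADP receptor P2ry12 was lower (-1.08 ± 0.388; 0.32 ± 0.426 against AD-3 alone).

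Of 19 complement rows 18 were above 0 and 14 passed the looser limit as higher (10.4% of all genes; median 1.37; 0.8 against AD-3 alone). In 4 rows the groups did not overlap, among them Cd55, C1r and C3, the last named after its values were seen. Cd55, which protects cells from complement, was at 4.15, 7.67, 22.3 and 10.5 CPM in AD and 32.7, 67.3, 45 and 164 CPM in AD-HFD (log2 2.79 ± 0.551), and the protease C1r at 8.14, 10.001, 24.4 and 19.5 CPM in AD and 45.6, 81.6, 24.7 and 97.4 CPM in AD-HFD (log2 2.01 ± 0.437). AD-3 was the highest AD library in both, and for C1r it was level with AD-HFD-3.

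Inflammatory and interferon genes stood high in AD-HFD-1, AD-HFD-2 and AD-HFD-4. Of 27 cytokine and NF-kB feedback genes 26 were above 0 and 14 were higher at the looser limit (10.4% of all genes), but in each of the 27 the groups overlapped. The median was 1.67, 2.81 without AD-3 and 0.89 against AD-3 alone. Il6 was at 0.138, 0.0583, 5.47 and 1.56 CPM in AD and 19.3, 9.24, 1.78 and 46.5 CPM in AD-HFD, the inflammasome protease Casp1 at 2.73, 3.32, 4.74 and 3.81 CPM in AD and 21.3, 10.2, 3.25 and 39.6 CPM in AD-HFD, and Tnfaip3, which shuts NF-kB signalling off, at 2.87, 3.99, 15.2 and 5.33 CPM in AD and 32, 22.9, 10.5 and 48.1 CPM in AD-HFD. In each, AD-3 exceeded AD-HFD-3. All 25 interferon-response genes were above 0 and 12 passed the looser limit (10.4% of all genes; median 1.34; 0.88 without AD-HFD-4, 1.59 against AD-3 alone). The guanylate-binding protein Gbp2 was at 9.55, 8.89, 27.1 and 18.3 CPM in AD and 122, 109, 25.7 and 169 CPM in AD-HFD, the peptide transporter Tap1 at 4.6, 5.95, 16.6 and 10.8 CPM in AD and 33, 40.8, 12.8 and 83.7 CPM in AD-HFD, and Ifit3 at 7.27, 8.02, 11.9 and 12.4 CPM in AD and 46.2, 32.8, 7.25 and 91.1 CPM in AD-HFD. AD-HFD-3 lay within the AD range for Gbp2 and Tap1 and just below it for Ifit3, and AD-HFD-1, AD-HFD-2 and AD-HFD-4 lay above it. Reactive astrocyte genes were all above 0 (24 of 24; 5 at the looser limit; median 1.5), but only 0.29 in the median against AD-3 alone. Vimentin, Vim, was at 81.6, 100.4, 399 and 138 CPM in AD and 684, 1221, 343 and 1389 CPM in AD-HFD, ceruloplasmin, Cp, at 16.1, 25.1, 56.7 and 30.2 CPM in AD and 104, 164, 53.1 and 166 CPM in AD-HFD, and Gfap at 473, 516, 2518 and 1227 CPM in AD and 1873, 3891, 2129 and 252 CPM in AD-HFD (log2 0.78 ± 0.685, adjusted p = 0.455). Homeostatic astrocyte genes were below 0 in 14 of 16 cases, 6 at the looser limit (7.8% of all genes), with a median of -0.74 and 0.3 against AD-3 alone. Among them were Fgfr3 (-1.55 ± 0.382), Aldoc (-1.29 ± 0.365) and the bicarbonate transporter Slc4a4 (-1.85 ± 0.464; 0.65 ± 0.239 against AD-3 alone).

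Blood, vessel and meningeal markers moved beside these immune genes. All 6 red blood cell rows were above 0 and 5 passed the looser limit (10.4% of all genes; median 2.01, and 0.88 without AD-HFD-4), with Hbb at 97.2, 119, 208 and 88.5 CPM in AD and 443, 279, 88.5 and 1551 CPM in AD-HFD. All 10 leukocyte rows were above 0 and 9 passed (median 1.95; 1.69 against AD-3 alone), including the pan-leukocyte gene Ptprc at 5.37, 7.58, 19 and 12.5 CPM in AD and 52.7, 36.1, 11.4 and 80.4 CPM in AD-HFD and the macrophage receptor Cd163 at 3.88, 3.85, 4.12 and 2.76 CPM in AD and 9.49, 13.7, 5.75 and 31.3 CPM in AD-HFD. Cd163 was the 1 of them whose groups did not overlap. The mean log2 CPM of the red blood cell list ran from 3.07 to 4.12 in AD and from 2.88 to 6.81 in AD-HFD, that of the leukocyte list from 0.68 to 1.62 and from 0.89 to 4.15. In AD-HFD both were lowest in AD-HFD-3 and highest in AD-HFD-4. With red blood cell and leptomeninges list means as covariates, the medians were 1.01 for disease-associated microglia, 0.81 for complement, 0.33 for interferon response and 1.55 for the inflammatory list, against 1.47, 1.37, 1.34 and 1.67 without covariates.

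By the list median, fibroblast genes of the leptomeninges differed from AD-3 about as much as from the other AD libraries. Of 14 members 13 were above 0, 9 were higher at the looser limit (10.4% of all genes) and 7 did not overlap (2.72% of all genes), with a median of 2.03, 1.99 without AD-3 and 2.16 against AD-3 alone. In all 7 members called without AD-3, AD-3 lay on the AD side of the AD-HFD range, against 810 of 5738 genes overall. Decorin, Dcn, a matrix proteoglycan, was at 12.6, 19.4, 20.9 and 13.8 CPM in AD, 57.1, 104, 39.6 and 246 CPM in AD-HFD and 6.54 to 27 CPM in Sham (log2 2.74 ± 0.585, adjusted p = 0.0605). The fibrillar collagen Col3a1 was at 5.4, 11.2, 16.3 and 6.2 CPM in AD and 18, 70.4, 34.5 and 163 CPM in AD-HFD, the matrix protein gene Fbln1 at 20.2, 25.8, 24.6 and 16.5 CPM in AD and 49.99, 88.6, 28.7 and 186 CPM in AD-HFD, and the retinoic acid enzyme Aldh1a2 at 2.94, 7.2, 10.9 and 3.66 CPM in AD and 14.2, 49.7, 17.8 and 135 CPM in AD-HFD. AD-HFD-4 was the highest library for all 4 genes. Against AD-3 alone the log2 fold changes of Dcn, Col3a1, Fbln1 and Aldh1a2 were 2.4, 2.12, 1.83 and 2.3. These were smaller than the values without AD-3, at 2.87, 3.22, 2.08 and 3.55. The mean log2 CPM of the list was 2.71 in AD, 4.43 in AD-HFD and 3.54 in Sham, so AD was the lowest group. Blood-brain barrier endothelial genes were above 0 in 15 of 18 cases, 10 of them at the looser limit (median 1.28; 0.65 without AD-HFD-4, 1.61 against AD-3 alone). Cdh5, the endothelial cadherin, was at 18.5, 20.001, 41.9 and 24 CPM in AD and 101, 66.1, 29.9 and 349 CPM in AD-HFD, the junction protein gene Esam at 22.4, 31.5, 49 and 29.3 CPM in AD and 114, 82.2, 31.7 and 377 CPM in AD-HFD, and the growth factor receptor Kdr at 11.8, 14.9, 50.6 and 17.4 CPM in AD and 127, 54.8, 29.2 and 346 CPM in AD-HFD. AD-HFD-3 was below AD-3 in all 3. Of 13 pericyte and smooth muscle genes 5 were higher and 1 lower at the looser limit (10.4% and 7.8% of all genes; median 0.61, and 0.13 without AD-HFD-4), with the smooth muscle protein gene Tagln at 15.1, 30.7, 54.4 and 16.6 CPM in AD and 123, 449, 114 and 85.9 CPM in AD-HFD and Pdgfrb at 0.96 ± 0.302 on the log2 scale. Myelin and oligodendrocyte genes had none of 18 at the looser limit. Their median was -0.12 with all libraries, -0.39 without AD-3 and 0.998 against AD-3 alone.

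**Figure D4:**
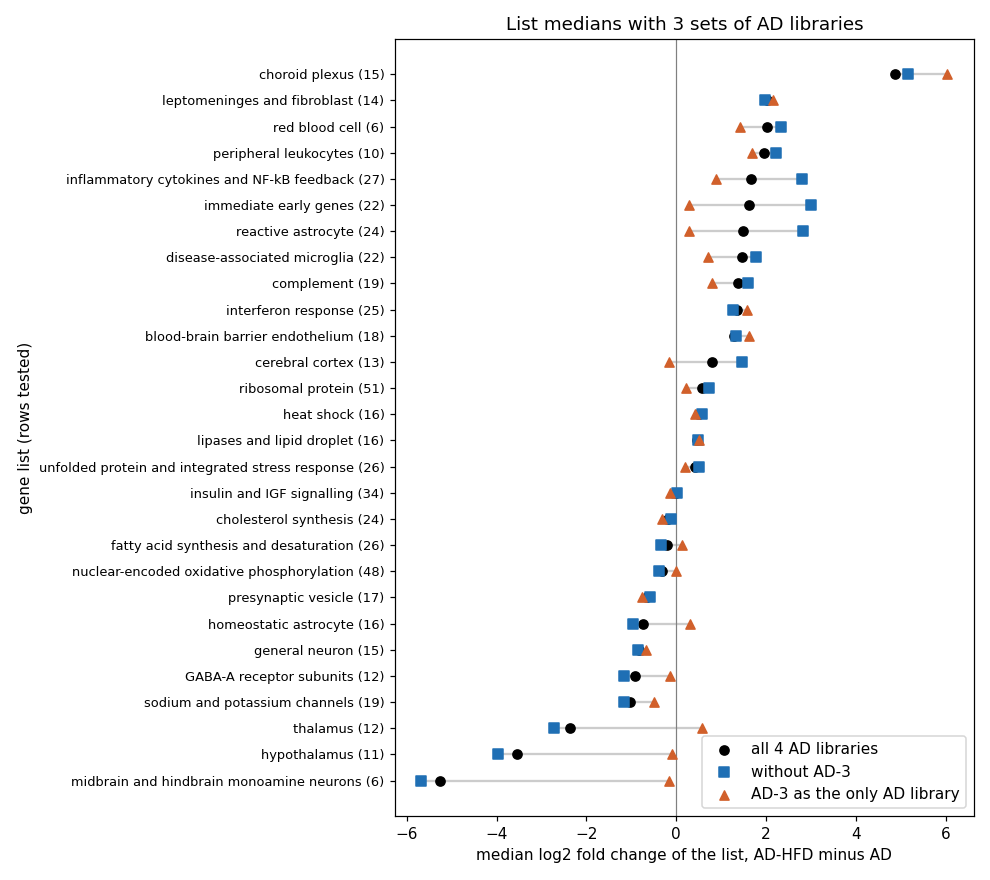
Median log2 fold change of AD-HFD over AD for 28 gene lists (rows tested in brackets), with all 4 AD libraries (circles), without AD-3 (squares) and with AD-3 as the only AD library (triangles). Region and reactive lists shift towards 0 against AD-3, whereas the leptomeninges median is 2.03 with all libraries and 2.16 against AD-3, and the presynaptic one -0.64 and -0.75.

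Genes of hormone signalling, on which a high-fat diet is known to act, were mixed. Of 34 insulin and IGF signalling genes 16 were above 0 and 18 below, 3 higher and 1 lower at the looser limit (10.4% and 7.8% of all genes), with a median of -0.015. Insr, the insulin receptor, was at 22.7, 25.7, 36.6 and 22.2 CPM in AD and 39.2, 35.3, 31.7 and 70.7 CPM in AD-HFD (log2 0.72 ± 0.254, adjusted p = 0.0927; 0.27 ± 0.401 against AD-3 alone), and AD-HFD-3 lay below AD-3. Ptpn1, the phosphatase that switches off insulin and leptin receptors, was at 14.2, 12.2, 34.6 and 18.7 CPM in AD and 36.7, 42.4, 40.9 and 48.3 CPM in AD-HFD. Its groups did not overlap, although AD-3 was close to AD-HFD-1 (log2 1.08 ± 0.28, adjusted p = 0.0605; 0.28 ± 0.244 against AD-3 alone). The binding protein Igfbp3 was at 6.16, 5.8, 39.4 and 9.97 CPM in AD and 50.9, 47.5, 33.8 and 168 CPM in AD-HFD (log2 2.29 ± 0.649). The adaptor Irs2 (-0.056 ± 0.218, adjusted p = 0.883) and Igf1 (0.37 ± 0.21, adjusted p = 0.244) did not pass. The leptin receptor, Lepr, stood at 5.57, 3.56, 10.4 and 3.92 CPM in AD, 16, 25.6, 15.7 and 27.5 CPM in AD-HFD and 2.74 to 8.84 CPM in Sham. All AD-HFD libraries were above all AD and all Sham libraries, and AD-3 was the highest AD library (log2 1.85 ± 0.435, adjusted p = 0.0605; 1.03 ± 0.637 against AD-3 alone). Glp1r, the receptor of the gut hormone GLP-1, was at 4.5, 4.02, 0.0615 and 2.68 CPM in AD and 0.624, 0.191, 0.0625 and 0 CPM in AD-HFD, with AD-3 at the AD-HFD level (log2 -3.66 ± 0.84). The appetite and leptin signalling list as a whole had 2 of 17 higher and 4 lower at the looser limit (10.4% and 7.8% of all genes).

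**Figure D5:**
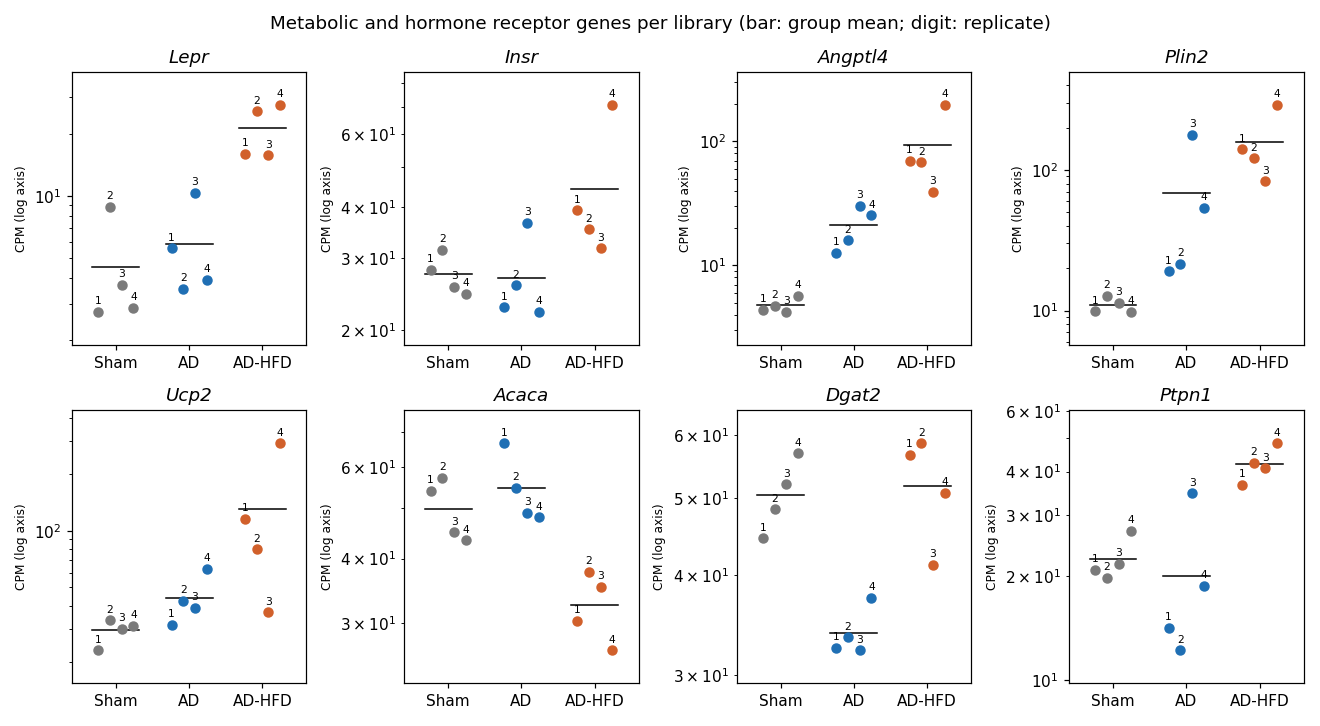
CPM on a log axis in each of the 12 libraries for 8 genes of hormone signalling and lipid metabolism, with the replicate number at each point and the group mean as a bar. Lepr, Ptpn1, Angptl4 and Dgat2 are higher and Acaca lower in all 4 AD-HFD libraries than in all 4 AD libraries, while Insr, Plin2 and Ucp2 overlap.

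Lipases and lipid droplet genes had more members higher than lower; over all genes 10.4% were higher and 7.8% lower at the looser limit, and 2.72% were higher without overlap. Of 16 lipase and lipid droplet genes, 4 were higher and 1 lower at the looser limit, and 3 did not overlap: Lipm, Lpl and the droplet coat gene Plin3, at 1.66, 2.01, 4 and 3.23 CPM in AD and 12.2, 11, 4.03 and 37.5 CPM in AD-HFD, where AD-3 and AD-HFD-3 were almost level (median 0.46; 0.5 against AD-3 alone). The other 9 of the 25 listed were not tested. Pnpla3, a lipid droplet acyl hydrolase, was the lower one (-1.04 ± 0.277). Of 30 PPAR target and fatty acid oxidation genes 2 were higher and 1 lower, near the shares over all genes (median 0.12, and 0.6 against AD-3 alone). Angptl4, an inhibitor of lipoprotein lipase that fatty acids induce, was at 12.6, 16, 30.3 and 25.3 CPM in AD, 69.3, 67.6, 39.4 and 196 CPM in AD-HFD and 4.22 to 5.72 CPM in Sham. Every AD-HFD library was above every AD library, and every AD library above Sham (log2 2.14 ± 0.441, adjusted p = 0.0605; 1.61 ± 0.751 against AD-3 alone). The mitochondrial uncoupling protein gene Ucp2 was at 31.6, 42.4, 39.1 and 62.8 CPM in AD and 116, 79.9, 36.8 and 292 CPM in AD-HFD and overlapped through AD-HFD-3. Plin2, which coats lipid droplets, was at 19, 21.5, 178 and 54 CPM in AD and 140.4, 121, 83.2 and 289 CPM in AD-HFD (1.22 ± 0.619, adjusted p = 0.202). Pdk4 (1.16 ± 0.504), the carnitine transferase Cpt1a (0.32 ± 0.445) and the coactivator Ppargc1a (-0.86 ± 0.36) did not pass, at adjusted p of 0.144, 0.651 and 0.134.

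Among 26 genes of fatty acid synthesis and desaturation, 4 were lower and 2 higher at the looser limit (background 7.8% and 10.4%). In 4 and 2 respectively the groups did not overlap (background 2.74% and 2.72%). Acaca, acetyl-CoA carboxylase and the committed step of synthesis, was at 66.7, 54.7, 49 and 48 CPM in AD and 30.3, 37.7, 35.3 and 26.6 CPM in AD-HFD (log2 -0.75 ± 0.163, adjusted p = 0.0605; -0.59 ± 0.249 against AD-3 alone). Dgat2, which makes triglyceride, was at 32.4, 33.4, 32.2 and 37.5 CPM in AD and 56.7, 58.6, 41.2 and 50.8 CPM in AD-HFD (log2 0.61 ± 0.141; 0.68 ± 0.242 against AD-3 alone). For Dgat2 Sham lay within the AD-HFD range, at 44.5 to 56.9 CPM. For Acaca Sham was above every AD-HFD library and overlapped AD, at 43.4 to 57.3 CPM. The acyl-CoA synthetase Acsl6 was at 306, 319, 139 and 192 CPM in AD and 129.97, 112, 146 and 72.5 CPM in AD-HFD (-1.05 ± 0.268). The other members without overlap, named after their values were seen, were Fasn, Acly and Acsl3 on the lower side and Acsl5 on the higher. Of 24 cholesterol synthesis genes 18 were below 0, 5 were lower at the looser limit and none higher, and 4 did not overlap (7.8% and 2.74% of all genes; median -0.17; -0.32 against AD-3 alone). Sc5d (-0.47 ± 0.135) and Nsdhl (-0.33 ± 0.116), enzymes of late steps, were among those without overlap, as was Fdft1, named after its values were seen, and Fdps (-0.49 ± 0.147), a step of the isoprenoid part, overlapped. Of 19 cholesterol transport genes 4 were higher and none lower (10.4% and 7.8% of all genes). Among the 4 were the ligase Mylip, which degrades the LDL receptor (0.8 ± 0.176), and Soat1, which esterifies cholesterol (1.23 ± 0.297).

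Oxidative phosphorylation genes were mostly below 0 by small amounts, against shares over all genes of 7.8% lower and 2.74% lower without overlap. Of 48 nuclear-encoded oxidative phosphorylation rows 45 were below 0, 8 were lower at the looser limit and 9 did not overlap (median -0.31), but the median was -0.0023 against AD-3 alone. Ndufb8, a complex I subunit, was at 147, 175, 110.2 and 147 CPM in AD and 91.2, 101, 94.7 and 109 CPM in AD-HFD (log2 -0.55 ± 0.153), and Sdha, the catalytic part of complex II, at -0.55 ± 0.176. All 13 mitochondrially encoded rows were below 0 and 5 did not overlap (median -0.44; -0.55 against AD-3 alone), but 1 alone, Mt-nd3, passed the looser limit, near the share over all genes (-0.64 ± 0.212). These transcripts made up 12.0% to 13.7% of counts in AD, 9.02% to 10.8% in AD-HFD and 10.5% to 11.3% in Sham. Of 27 glucose uptake and glycolysis genes 1 was higher and 4 were lower at the looser limit, among them phosphofructokinase Pfkm (-1.01 ± 0.282) and lactate dehydrogenase Ldhb (-0.96 ± 0.272; 0.21 ± 0.241 against AD-3 alone).

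Most heat shock and ribosomal protein genes were above 0; over all genes 10.4% were higher and 7.8% lower at the looser limit, and 2.72% were higher without overlap. Of 16 heat shock genes 15 were above 0, 4 were higher and 1 lower at the looser limit and 3 did not overlap (median 0.51; 0.43 against AD-3 alone). The cochaperone Dnajb1 was at 75.2, 68.7, 71.5 and 98.4 CPM in AD and 124, 128, 98.1 and 154 CPM in AD-HFD, and Hspa2 at 17.5, 31.8, 71.8 and 31 CPM in AD and 91.1, 141, 67.6 and 88.1 CPM in AD-HFD. Of 26 unfolded protein and integrated stress response genes 5 were higher, including Atf3, a stress-induced transcription factor, at 3.7, 1.08, 39.9 and 26.9 CPM in AD, 137, 159, 31.6 and 274 CPM in AD-HFD and at most 1.19 CPM in Sham. Of 21 NRF2 antioxidant genes 5 were higher (median 0.61), including the cystine carrier Slc7a11 at 26.1, 22.1, 43 and 38.5 CPM in AD and 77.4, 73.2, 47.7 and 92.5 CPM in AD-HFD, whose groups did not overlap, and the regulator Nfe2l2 itself (1.31 ± 0.35). Ribosomal protein genes were above 0 in 48 of 51 rows, 17 of them at the looser limit (median 0.57; 0.22 against AD-3 alone), as in Rps2 (1.19 ± 0.366). Of 18 clock genes 1, Per2 (0.69 ± 0.245), was higher and 2 were lower, Dbp (-1.19 ± 0.32; 0.34 ± 0.24 against AD-3 alone) and Hlf. Hlf, like Dusp1 and Mt2A, the 2 of 15 glucocorticoid response genes that were higher, was named after its values were seen. Of 29 lysosome and autophagy genes 6 were higher and 4 lower (median 0.16), and of 25 proteasome genes 1 and 1.

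Neither the gene of the amyloid precursor nor that of tau passed even the looser limit. App was at 2195, 2027, 1871 and 2062 CPM in AD and 1443, 1635, 2087 and 1407 CPM in AD-HFD (log2 -0.31 ± 0.178, adjusted p = 0.254). Mapt was at 469, 459, 318 and 409 CPM in AD and 211, 281, 446 and 181 CPM in AD-HFD (log2 -0.56 ± 0.248, adjusted p = 0.149). In both, AD-HFD-3 lay within the AD range and AD-HFD-4 was the lowest. Of 21 amyloid precursor processing genes 6 were higher and 2 lower at the looser limit (10.4% and 7.8% of all genes), including Picalm, which acts in endocytosis (0.88 ± 0.235), and Ece1, a peptidase that can degrade amyloid peptide, at 62.6, 58.7, 184 and 98.1 CPM in AD and 242, 255, 149.5 and 789 CPM in AD-HFD. AD-HFD-3 lay below AD-3 for Ece1 and Picalm. Of 20 tau and tau kinase genes none were higher and 2 were lower (median -0.35).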

How the data were processed

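Total RNA was extracted with TRIzol and made into mRNA libraries with a Hieff NGS Ultima Dual-mode kit, per the labels' protocols. Per the submitters' processing notes, FastQC and Trimmomatic were used. Aligner, counter, strand setting, genome build and annotation are not given in the sources used here. The authors deposited raw read counts per gene for all 12 libraries, with rat Ensembl identifiers and 9127 unnamed new loci. Since the counting of strand and of multiply mapped reads is unknown, values of overlapping or antisense genes and of near-identical copies (haemoglobin, ribosomal protein and mitochondrial genes among them) are uncertain.

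From these counts, genes were kept by edgeR's filterByExpr, scaled by TMM and tested with the quasi-likelihood test (edgeR 4.0.16 in R 4.3.3) with Benjamini-Hochberg adjustment over 18850 rows. All 12 libraries entered 1 fit with group as the only term, so that Sham shares the estimate of the spread. List means use log2 CPM with a prior count of 2. DESeq2 1.42.0, limma 3.58.1 and the other alternatives are described with their effect in the closing section. On simulated counts for 18850 genes in this comparison, 70 of 100 genes changed 4-fold and 13 of 100 changed 2-fold were recovered, and 9.78% of the calls were unchanged genes. Each gene was drawn independently around 1 mean for all libraries, apart from the set changes. The simulated libraries thus lacked the region, blood and choroid plexus differences seen here, and these rates need not hold for the data.

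The comparison, the 53 gene lists and the alternatives were chosen with earlier results of these data known. Named genes are those called, those with the smallest p, the largest fold change or the widest gap between groups in each direction among genes at 1 CPM or more with no overlap, up to 4 members with the smallest p of each list described, and fixed genes of the disease, of hormone signalling and of early response. Some genes that the rule takes are not reported here. No 2 libraries of the same group agreed within sampling noise. The labels give no batch or date.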

Additional observations from a re-analysis of the deposited data

Results flagged for a closer look

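In each gene or list named, the group of 4 libraries was searched on the log2 CPM scale. A library was flagged if its gap to the nearest other exceeded Dixon's critical share of the group's range. Gene values below are printed in CPM, on which that share can differ. This held for 21 of 380 groups (5.53%), where chance gives about 1 in 20, so the number as a whole is close to chance. AD-3 was the library set apart in 12 of them.

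Within AD, AD-3 stood low for the glutamate transporter Slc17a6 (24.1 CPM, others 278 to 440), Csdc2 (62.1, others 262 to 341), calretinin Calb2 (7.04, others 166 to 213), the receptor subunit Grin2d (4.8, others 41.1 to 44.7) and Dbp (35.6, others 114 to 144). It also stood low for metabolic genes: Glp1r (0.0615 CPM, others 2.68 to 4.5), Pnpla3 (4.7, others 9.79 to 10.8) and Fdps (175, others 216 to 224). AD-3 stood high for Bdnf (82 CPM, others 9.74 to 10.5), Soat1 (20.5, others 9.8 to 11), Lipm (0.154, others 0) and the mean log2 CPM of the glycolysis list (8.03, others 7.53 to 7.6). For Lipm the other AD libraries were tied at 0, so any count in AD-3 would have been flagged.

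AD-4 stood high for the hypothalamus list (mean log2 CPM 4.85, others -0.369 to 0.252) and its peptide gene Hcrt (112 CPM, others 0.346 to 0.496), and low for Cd163 (2.76, others 3.85 to 4.12). AD-1 stood high for Elmo1 (131 CPM, others 90.3 to 92.5) and low for C6 (0, others 0.29 to 0.35).

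Within AD-HFD, AD-HFD-3 stood low for the oligodendrocyte and myelin list (mean log2 CPM 6.7, others 8.53 to 8.7). AD-HFD-1 stood high for the tight junction gene Cldn1 (41.4 CPM, others 1.63 to 2.1). AD-HFD-4 stood low for Ttll3 (0.898 CPM, others 2.44 to 2.71) and the neurofilament gene Nefh (25.3, others 69.9 to 78.3).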

How the results depend on the processing

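The count of 2 called genes was also 2 with limma voom, the legacy quasi-likelihood method, both other scalings and a filter of 1 CPM in 4 libraries. It was 3 without a filter. With the legacy quasi-likelihood method Lipm was not among the 2 called (adjusted p = 0.0771). DESeq2 called 3311, the AD and AD-HFD libraries alone 0 (3917 at an unadjusted p under 0.05), AD-3 as the only AD library 0, leaving out AD-HFD-3 and AD-HFD-4 1898, thalamus and cortex list means as covariates 17 and red blood cell and leptomeninges list means 16. Of the 17 genes called with thalamus and cortex covariates 3 were higher and 14 lower. Of the 16 with red blood cell and leptomeninges covariates 9 were higher and 7 lower. Leaving out 1 library gave 0 to 5841. With the replicate number as a block 5 genes were called, and 12 at the looser limit. The labels do not say that numbers pair the libraries, the correlations of same-numbered AD and AD-HFD deviations were -0.0355 to 0.0947, and not every library correlated best with its own number. Against AD-3 alone, the log2 fold change turned direction for Aldoc (0.33), Apoe (0.34), Bdnf (-0.85), Calb2 (0.50), Dbp (0.34), Gabrb2 (0.26), Gfap (-0.31), Glp1r (1.76), Grin2d (0.68), Ldhb (0.21), P2ry12 (0.32), Plin2 (-0.17) and Slc4a4 (0.65), and for Gbx2 (5.62) and Pmch (7.825), where AD-3 had 0 counts and the value is no bound. With thalamus and cortex covariates it turned for Apoe (0.13), Bdnf (-0.51), Gbx2 (2.08) and Pmch (4.26). With red blood cell and leptomeninges covariates it turned for Cpt1a (-0.89), Irs2 (0.26), Pdk4 (-0.44) and Trem2 (-0.33). Leaving out 1 library gave a range that crossed 0 for Bdnf (-0.019 to 2.15, below 0 without AD-HFD-3), Irs2 (-0.34 to 0.10, above 0 without AD-HFD-1 or AD-HFD-4), Cpt1a (-0.22 to 0.60) and Trem2 (-0.10 to 0.32), the last 2 below 0 without AD-HFD-4, and Bdnf was at -0.050 when AD-HFD-3 and AD-HFD-4 were both left out. The cause was not tested. List medians also moved. That of hypothalamus was -1.38 with limma voom, -1.36 with the replicate block and -0.98 with the filter of 1 CPM, that of midbrain and hindbrain monoamine neurons -2.87 and that of inhibitory neuron -0.0059 with limma voom. With the red blood cell and leptomeninges covariates it was 2.08 for cerebral cortex and changed sign for striatum (0.23), inhibitory neuron (0.74), postsynaptic scaffold (0.49), RGS proteins (0.085), pericyte and smooth muscle (-0.44), red blood cell (-0.034), insulin and IGF signalling (0.08), PPAR targets and fatty acid oxidation (-0.29), lipoprotein and cholesterol transport (-0.11), glucose uptake and glycolysis (0.12), circadian clock (0.015), amyloid precursor processing (-0.035) and lysosome and autophagy (-0.025). With the thalamus and cortex covariates it changed sign for thalamus (0.20), hypothalamus (0.083), oligodendrocyte and myelin (0.65), oligodendrocyte precursor (0.29), circadian clock (0.042) and neurotrophins and neuropeptides of plasticity (-0.68). The thalamus, cerebral cortex, red blood cell and leptomeninges lists were themselves the covariates. A fit adjusted for a list's own mean cannot show whether that list differs.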
